A study of Mus musculus with 15 samples.

Results

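Cells of the mouse melanoma line B16.F10 that had received a Hif1a siRNA and then doxorubicin (group Hif1a_siRNA_Dox, called the combined group below) were compared with untreated cells of the same line (group Control). Each group had 3 RNA-seq libraries, out of 15 libraries in the series. The genes compared were all those listed by gene ID in the deposited tables of both groups, which gave 13073 of the 13172 genes listed in any group. All groups were grown as monolayers in 1% oxygen, so the Control cells were hypoxic as well and no normoxic group was analysed here. In the combined group, lipid complexes carried siRNA into freshly seeded cells at 25 nM, and doxorubicin followed 24 h later at 0.25 µM for a further 24 h. Its genotype label is Hif-1a knockdown, and that of Control is WT with no treatment. Control cells had no transfection and no vehicle is named for them, so siRNA sequence, lipid, drug and handling changed together between the 2 groups. Values from 3 further groups stand beside the comparison: a negative control siRNA (NC_siRNA), the Hif1a siRNA alone (Hif1a_siRNA) and doxorubicin alone (Dox), with 3 libraries each. No group received the negative control siRNA together with doxorubicin. The labels call the libraries biological replicates and do not say whether the cultures were separate. The p-values therefore reflect the variation among these libraries, which may be technical.

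The 3 Control libraries held 25898384 to 26434083 counted reads and the 3 combined libraries 23825110 to 28734303. No library of a group was a copy of another, since pairs within a group differed 3.56 to 33.7 times more than counting error alone (chi-square statistic across genes, per degree of freedom), most of all within the combined group. Mitochondrially encoded genes took 1.38 to 1.47% of Control reads and 3.91 to 5.08% of reads in the combined group. Over all 15 libraries the first principal component of log2 CPM held 73% of the variance and placed Control, NC_siRNA and Hif1a_siRNA on one side and Dox and the combined group on the other. Of the 13073 genes, 179 reached 10 reads only in the 3 combined libraries and 65 only in the 3 Control libraries, and these had to differ in order to be listed. A further 99 genes listed for Control are not in the combined table and have no test here. Their mean Control counts had a median of 7.7 reads.

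HIF-1 is a transcription factor made of an oxygen-regulated alpha subunit, encoded by Hif1a, and a constant partner, encoded by Arnt. In low oxygen the alpha subunit escapes hydroxylation by the Egln enzymes and destruction through Vhl, and the pair binds DNA at a short core motif to raise genes of glucose uptake, glycolysis, lactate production, mitophagy and vessel growth. Doxorubicin is an anthracycline that intercalates into DNA and traps topoisomerase II, which leaves DNA breaks, engages p53 and disturbs transcription. Melanoma cells in poorly perfused tumours meet both low oxygen and drugs of this kind, and the series asks how lowering Hif1a in hypoxia bears on the doxorubicin response.

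Levels are given as CPM, the reads of a gene per 1000000 reads of its library after TMM scaling. Differences are log2 fold changes with their standard errors (SE) from edgeR's quasi-likelihood test, and a gene is said to rise or fall where its Benjamini-Hochberg adjusted p was under 0.05. Unless another comparison is named, values compare the combined group with Control on the scaling of those 6 libraries, and n = 3 for each group. CPM is a share of a library, so less RNA per cell and a different mix of cells in the dish cannot be told apart.

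Hif1a (gene ID 15251, chromosome 12, 73901324 to 73947554 in mm10, protein-coding) had 197, 222 and 209 CPM in the 3 Control libraries and 12.6, 10.9 and 13.3 CPM in the 3 combined libraries. The groups lay far apart, with every combined library below every Control library. The log2 fold change was -4.10 ± 0.11 (SE, n = 3 each), a 17.1-fold lower level (edgeR adjusted p = 2.9e-14). On the scaling of all 15 libraries, Hif1a stood at 205, 231 and 216 CPM in Control, 289, 268 and 264 in NC_siRNA, 16.7, 15.9 and 18.9 in Hif1a_siRNA, and 138, 137 and 153 in Dox. The combined libraries had 13.5, 11.6 and 14.3 CPM on that scaling, below each of the other 12 libraries. Hif1a thus lay between 11.6 and 18.9 CPM in the 6 libraries labelled with its siRNA and between 137 and 289 CPM in the other 9.

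Arnt, the partner subunit (chromosome 3, 95434367 to 95497240), had 200, 208 and 186 CPM in Control and 11.6, 11.4 and 11.4 CPM in the combined group. Its fall of -4.11 ± 0.10 was as large as that of Hif1a (17.3-fold, edgeR adjusted p = 1.6e-14). The low level was found in the groups given the drug and not after the siRNA alone: on the 15-library scaling Arnt had 185, 187 and 179 CPM in Hif1a_siRNA and 10.1, 9.15 and 8.34 CPM in Dox. Cells given both agents thus had low levels of both HIF-1 subunit transcripts, each low in a different single-agent group.

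Among 11 listed HIF subunits and regulators of 13 in the list, 2 rose, 6 fell and 3 were not called, and the median log2 fold change was -1.75. Over all 13073 genes, 81.1% were called (41.6% higher and 39.5% lower) with a median of 0.03, so a called member is the rule in this comparison and not the exception. Epas1, which encodes the HIF-2 alpha subunit, had 16.5, 15.9 and 13.9 CPM in Control and 32.2, 27.5 and 34.9 CPM in the combined group, a rise of 1.03 ± 0.13 (edgeR adjusted p = 1.9e-06). Against Control its log2 fold change was 0.97 in Dox, -0.73 in Hif1a_siRNA and 1.12 in NC_siRNA. Of the genes that limit HIF, the prolyl hydroxylase Egln1 fell (-2.64), as did Vhl (-2.79), the asparaginyl hydroxylase Hif1an (-1.75) and Cited2, a competitor for the p300 coactivator (-1.77). The coactivator Ep300 rose (1.92), and Egln2 (-0.16), Egln3 (0.14) and Crebbp (0.28) did not pass the test.

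**Figure D1:**
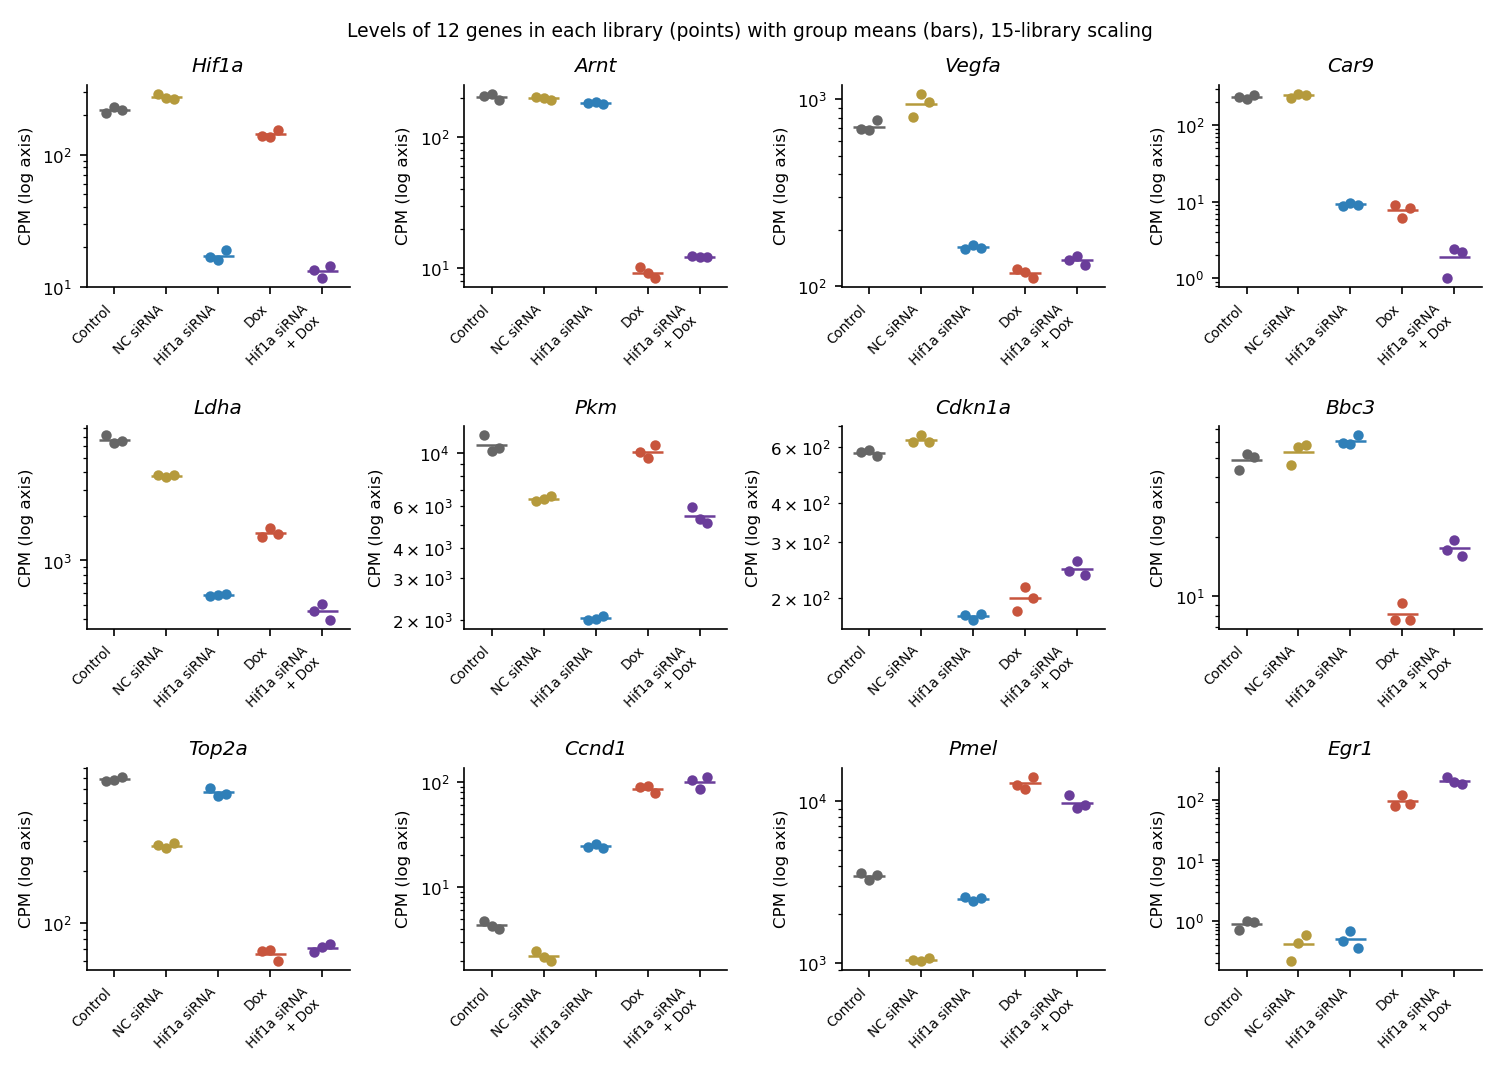
CPM of 12 genes in each of the 15 libraries (log axis, scaling of all 15 libraries), with 1 point per library and a bar at each group's mean. Hif1a is low in the groups Hif1a_siRNA and Hif1a_siRNA_Dox, and Arnt in Dox and Hif1a_siRNA_Dox.

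HIF targets were read from lists for glycolysis and lactate (24 genes, all listed) and for targets outside glycolysis (25 of 28 listed). The 250 bases before the RefSeq start site (GRCm38.p6) were available for 39 of these 49 genes and were searched on both strands for the HIF core letters ACGTG, whose reverse complement is CACGT. The letters occurred in 24 of 39 windows (61.5%), in 12 of 23 glycolysis windows (52.2%) and in 12 of 16 others (75%). The same search found them in 2512 of 9754 windows of all tested genes (25.8%). The E-box CACGTG, which holds the letters on both strands, was in 6 of the 39 windows (15.4%) and in 988 of the 9754 (10.1%). A match describes letters and not binding. The windows of the 4 targets that fell furthest and had one are shown to let the letters be seen beside the size of the fall, each 5′ to 3′ on the gene's strand with the last base next to the start site and matches in capitals.
Car9, chr4:43506776-43507025, plus strand: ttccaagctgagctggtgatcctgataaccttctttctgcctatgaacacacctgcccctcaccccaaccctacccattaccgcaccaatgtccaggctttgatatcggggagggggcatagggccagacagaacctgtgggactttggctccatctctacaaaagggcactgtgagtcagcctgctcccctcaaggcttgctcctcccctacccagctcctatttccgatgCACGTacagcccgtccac
Eno2, chr6:124769674-124769923, minus strand: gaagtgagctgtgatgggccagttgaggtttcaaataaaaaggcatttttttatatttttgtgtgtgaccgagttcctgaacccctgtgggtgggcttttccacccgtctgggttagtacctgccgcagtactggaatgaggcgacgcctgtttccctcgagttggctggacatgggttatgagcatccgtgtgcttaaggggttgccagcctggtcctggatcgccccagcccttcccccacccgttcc
Bhlhe41, chr6:145865421-145865670, minus strand: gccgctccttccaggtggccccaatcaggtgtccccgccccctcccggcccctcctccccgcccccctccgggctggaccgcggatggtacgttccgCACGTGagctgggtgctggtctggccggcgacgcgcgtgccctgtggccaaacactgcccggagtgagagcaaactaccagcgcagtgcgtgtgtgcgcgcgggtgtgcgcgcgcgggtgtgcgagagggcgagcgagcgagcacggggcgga
Ankrd37, chr8:45999851-46000100, minus strand: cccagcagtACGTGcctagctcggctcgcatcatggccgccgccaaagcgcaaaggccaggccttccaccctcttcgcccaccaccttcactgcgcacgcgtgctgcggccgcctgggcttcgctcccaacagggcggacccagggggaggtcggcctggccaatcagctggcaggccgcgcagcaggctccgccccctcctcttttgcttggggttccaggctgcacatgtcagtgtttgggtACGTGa
The Car9 window held 1 match, whose first base is at -18 from the start site. Ankrd37 had 2, at -241 and -6. In Bhlhe41 the 2 matches overlap within a CACGTG at -153. The Eno2 window held 0 matches, which says only that these letters are not in this window.

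Targets outside glycolysis fell in 22 of 25 cases, the median log2 fold change being -3.31, and the remaining 3 rose. All 10 members of the stress and signalling group fell, as did the 5 collagen-modifying enzymes (median -1.83) and 4 of 5 mitophagy and cell death genes. Car9, carbonic anhydrase IX of the cell surface, had 226, 215 and 238 CPM in Control and 0.931, 2.28 and 2.05 CPM in the combined group. That difference was -7.01 ± 0.20 (edgeR adjusted p = 3.6e-12). Bnip3l, a mitophagy receptor, went from 1413, 1384 and 1391 CPM to 59.1, 63.4 and 62.5 CPM, a fall of -4.50 ± 0.09 (edgeR adjusted p = 3.8e-15). Its paralogue Bnip3 fell by 4.86, the circadian and hypoxic repressor Bhlhe41 by 5.48, Ankrd37 by 5.43 and the oxidoreductase Ero1a by 4.34. In each of these genes the 2 groups did not overlap, which held for 82.4% of all genes tested.

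Vegfa, the vessel growth factor, had 666, 658 and 748 CPM in Control and 128, 136 and 121 CPM in the combined group (-2.43 ± 0.09, edgeR adjusted p = 6.3e-13). Its log2 fold change against Control was close to this in Dox (-2.61) and in Hif1a_siRNA (-2.15), and 0.40 in NC_siRNA. Ndrg1 changed least of the falling targets, from 1451, 1411 and 1390 to 1157, 1102 and 1043 CPM (-0.36 ± 0.08, edgeR adjusted p = 4.9e-04). In Hif1a_siRNA alone Ndrg1 stood at 147, 150 and 153 CPM on the 15-library scaling, against 1297, 1359 and 1460 CPM in Dox. Among the 3 members that rose was Ndufa4l2 (1.09, from 0.87 to 1.86 CPM), a mitochondrial protein gene.

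In the glycolysis list 21 of 24 genes fell and 3 rose, with a median of -2.71, and all 15 glycolytic enzymes were among those that fell. Aldoa, which encodes the muscle-type aldolase, went from 14184, 12522 and 12667 CPM to 1025, 1071 and 920 CPM (-3.71 ± 0.10, edgeR adjusted p = 2.2e-14). Ldha, lactate dehydrogenase A, went from 6891, 6087 and 6261 CPM to 420, 472 and 367 CPM (-3.93 ± 0.11, edgeR adjusted p = 3.7e-14). For both genes the highest combined library lay more than 10-fold below the lowest Control library. Eno2, a neuronal-type enolase, showed the largest fall of the list, from 410, 375 and 420 CPM to 5.98, 10.1 and 7.55 CPM (-5.67 ± 0.16, edgeR adjusted p = 6e-13). Pkm, pyruvate kinase, showed the smallest, from 11434, 9823 and 10131 CPM to 5569, 4929 and 4749 CPM (-1.04 ± 0.09). The gatekeeper kinase Pdk1 fell by 3.70, the glucose transporter Slc2a1 by 3.37, hexokinases Hk1 by 3.24 and Hk2 by 2.51, and the lactate exporter Slc16a3 by 2.71. Gapdh fell by 3.06 and its share of all reads went from 2.14 to 2.33% in Control to 0.322 to 0.327% in the combined group. Gapdh, Aldoa, Ldha, Pkm and Eno1 have near-identical pseudogene copies, and how reads were split among the copies is not given in the sources used here. Pseudogenes together held 4.50 to 5.09% of Control reads and 1.94 to 1.98% of reads in the combined group.

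Against the direction of the list, the second glucose transporter Slc2a3 rose from 3.87, 5.4 and 3.56 CPM to 67.1, 58.2 and 61.1 CPM (3.86 ± 0.15, edgeR adjusted p = 1.5e-12). Pfkfb4, which sets fructose bisphosphate levels, rose by 1.77 on the log2 scale, and the lactate carrier Slc16a1 rose by 1.38. Side by side, and with the Control libraries shared by all of these contrasts, the glycolysis list had a median of -1.92 in Dox, -2.84 in Hif1a_siRNA and -0.35 in NC_siRNA. The corresponding medians of the targets outside glycolysis were -2.61, -2.83 and 0.03. In NC_siRNA against Control 16 of 24 glycolysis genes fell and 4 rose, where 66.8% of all genes tested were called (33.1% higher and 33.7% lower).

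**Figure D2:**
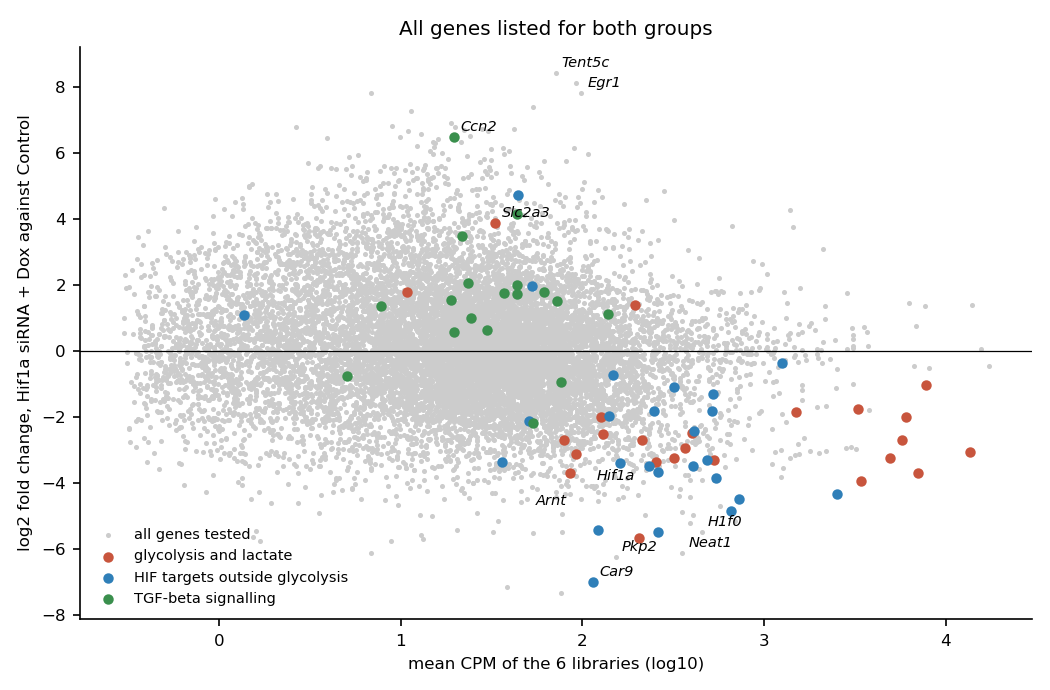
Each point is 1 of the 13073 genes, with the log10 of its mean CPM over the 6 libraries on the x axis and the log2 fold change of the combined group against Control on the y axis. Glycolysis genes (red) and other HIF targets (blue) lie below 0 with 3 exceptions in each list, and TGF-beta genes (green) lie mostly above it.

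Changes were large across the transcriptome. By edgeR, 5439 genes were higher and 5159 lower, and 3582 (27.4%) and 3313 (25.3%) of them differed by at least 2-fold in the respective direction. Where the higher group averaged 5 CPM or more, the largest rise was that of Tent5c, a poly(A) polymerase, at 0.425, 0.51 and 0.293 CPM in Control and 151.5, 140.7 and 133.4 CPM in the combined group (8.42 ± 0.17, edgeR adjusted p = 3.8e-15). It rested on 29 Control reads in all against 12710, a ratio of 348 with a 95% counting interval of 242 to 520. Next came the retinoic acid hydroxylase Cyp26b1 (8.13), Egr1 (7.82), Mest (7.39), Sfn, which encodes 14-3-3 sigma (7.28), lymphotoxin beta Ltb (6.80), Glyatl3 (6.79), Zfp791 (6.78), Rhpn2 (6.72) and Oplah, 5-oxoprolinase (6.71). Several of these had almost no Control reads: Glyatl3 had 3 in all, so its ratio of 122 has an interval of 41.4 to 592, and Sfn had 10. Sfn, Ltb and Glyatl3 stayed under 10 reads in every Control library, so they are among the 179 genes that had to differ to be listed. Like Mest, they were not listed in every group and have no values in the fit of all 15 libraries.

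The largest falls were those of BC062258, a long noncoding RNA, from 145, 152 and 160 CPM to 1.23, 0.85 and 0.721 CPM (-7.34 ± 0.15), followed by Car9 and by the desmosomal plakophilin Pkp2 (-6.26 ± 0.13). Pkp2 had 310, 288 and 306 CPM in Control and 4.65, 3.95 and 3.11 CPM in the combined group. Neat1, the noncoding RNA that scaffolds paraspeckles, had 796, 475 and 832 CPM in Control and 9.37, 11.1 and 9.40 CPM in the combined group (-6.13 ± 0.27). The second Control library was the lowest of its group for Neat1 and still far above every combined library. H2ac25, a histone gene, was uneven in Control at 19.4, 18.8 and 2.51 CPM, and its fall of -6.12 ± 1.17 (edgeR adjusted p = 0.0062) did not pass with limma-voom (adjusted p = 0.082). It stayed under 10 reads in every combined library, so it is among the 65 genes that had to differ to be listed. The list of 10 was completed by Kctd16 (-5.76), Eno2, Angptl6 (-5.53), the linker histone H1f0 (-5.50) and Arfgef3 (-5.49).

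Targets of p53 mostly rose, in 18 of 25 listed members of 29, while 6 fell and Ddb2 (0.03) was not called, with a median of 1.08. Of 9 genes of the arrest group 7 rose. Plk2, a polo-like kinase, went from 13.9, 14.7 and 15.4 CPM to 360, 337 and 272 CPM (4.46 ± 0.12, edgeR adjusted p = 3.3e-14). Further rises were those of Plk3 (3.71), the fructose bisphosphatase Tigar (2.92), the antiproliferative Btg2 (2.80), the nuclease Aen (2.79) and the phosphatase Ppm1d (2.77). Mdm2, the ligase that degrades p53, rose from 38.8, 48.8 and 54.7 CPM to 99.4, 111 and 106 CPM (1.15 ± 0.12), and Trp53 itself rose by 0.87. Against Control, Mdm2 was at 0.94 in Dox, 1.32 in Hif1a_siRNA and 0.61 in NC_siRNA, and Trp53 at 0.42, 0.75 and -0.26. The best known arrest gene, Cdkn1a (p21), went the other way, from 561, 565 and 543 CPM to 227, 244 and 219 CPM (-1.27 ± 0.08, edgeR adjusted p = 3.8e-10). Its log2 fold change against Control was -1.53 in Dox, -1.72 in Hif1a_siRNA and 0.14 in NC_siRNA. Bbc3, which encodes the death activator PUMA, fell from 41.8, 50.3 and 48.8 CPM to 16, 18.1 and 14.9 CPM (-1.52 ± 0.12). Gadd45a (-2.59), Polk (-1.02) and Phlda3 (-0.43) also fell, and Bax (-0.20, edgeR adjusted p = 0.038) fell only narrowly and lost its call under several alternatives. In Dox against Control, 18 of the 25 p53 targets were higher and 7 lower (median 1.01). The counts were 20 and 2 in Hif1a_siRNA (median 0.75) and 10 and 7 in NC_siRNA (median 0.21). Of all genes tested, 43.9%, 40.2% and 33.1% were higher in these 3 comparisons.

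In the BCL2 family 5 of 11 listed members rose and 5 fell, with a median of -0.20. Of 5 BH3-only genes, which start cell death, 4 rose and Bbc3 fell. The pore-forming effectors Bak1 (-1.33) and, narrowly, Bax fell. Bmf rose from 1.96, 1.27 and 1.97 CPM to 51.5, 51.4 and 53.7 CPM (4.91 ± 0.16), and Bid from 2.94, 2.85 and 2.43 CPM to 58.4, 63.1 and 57.3 CPM (4.44 ± 0.14). Bcl2l11 (BIM) rose by 2.50 and Bad by 2.20. On the survival side Mcl1 fell by 1.73 and Bcl2l2 by 1.43, Bcl2 rose by 0.67, and Bcl2l1 (-0.23) was not called.

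Doxorubicin's own target Top2a, topoisomerase II alpha, fell from 645, 655 and 687 CPM to 63.2, 67.1 and 70.1 CPM (-3.31 ± 0.09). The value was -3.39 in Dox, -0.26 in Hif1a_siRNA and -1.28 in NC_siRNA, each against Control. Top1 (-1.48) and Top2b (-1.03) fell as well. Among drug efflux pumps, Abcc1 fell by 2.09 and Abcg2 by 0.99. The P-glycoprotein gene Abcb1b had 5.7, 5.65 and 5.31 CPM in Control and 6.12, 6.71 and 8.15 CPM in the combined group, which do not overlap, but its 0.33 was not called (edgeR adjusted p = 0.11). It passed at 0.38 in the fit of all 15 libraries and at 0.45 with upper-quartile scaling. Of 5 reductases in this list 3 rose, 1 fell and 1 was not called. The quinone reductase Nqo1 rose by 2.36. Cbr3, of the carbonyl reductase family that reduces anthracyclines, rose by 1.72 from 1.62, 1.19 and 1.59 CPM to 3.69, 6.44 and 4.32 CPM. Its relative Cbr1 had 20.6, 17.8 and 17.8 CPM in Control and 18.1, 19.6 and 16.8 CPM in the combined group, which overlap. Por had 74.2, 68.8 and 70.5 CPM and then 59.3, 66.1 and 54.7 CPM. Altogether 3 of 13 listed genes rose, 7 fell and 3 were not called.

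DNA damage signalling was divided, with 13 of 25 members up, 7 down and 5 not called (median 0.30). Nbn, the nibrin subunit of the break sensor, fell from 93.2, 85.3 and 82.9 CPM to 4.82, 5.68 and 3 CPM (-4.26 ± 0.18), whereas its partner Rad50 rose by 0.52 and Mre11a (-0.22) was not called. The ubiquitin ligase Rnf168 (-2.17) and the kinases Chek2 (-1.98), Atr (-1.21) and Prkdc (-1.21) fell. The clamp subunit Rad9a (2.73), the scaffold Topbp1 (2.14), Mdc1 (1.70) and Chek1 (1.70) rose. Homologous recombination had 9 of 27 genes up and 13 down, with a median of -0.08 that ran from -0.26 to 0.03 over the alternatives, among them Fancb (3.63), Palb2 (2.94) and Xrcc3 (2.78) above and Rad51b (-2.27) and Ube2t (-1.72) below Control.

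Genes of DNA replication rose more often than they fell, at 26 up, 8 down and 8 not called of 42 (median 0.94). Of the 11 genes of the replicative helicase 9 rose, and Gins4 (0.03) and Gins3 (0.44) were not called. Fen1, the flap nuclease, went from 5.83, 5.65 and 5.65 CPM to 57.4, 58.8 and 60.2 CPM (3.36 ± 0.12). Orc1 (4.10), Rpa2 (2.93) and Mcm10 (2.88) rose, while Orc3 (-2.85), the clamp loader Rfc1 (-2.83), Orc5 (-2.31) and the licensing inhibitor Gmnn (-2.03) fell, and the clamp gene Pcna (0.07) was not called. In NC_siRNA against Control, 35 of the 42 genes were lower and 2 higher. Nucleotide synthesis was similar, with 13 of 17 genes up and 3 down (median 1.24). The purine enzyme Gart had 13.2, 11.9 and 13.4 CPM in Control and 217, 227 and 213 CPM in the combined group (4.09 ± 0.10). Rrm2 (2.71) and Cad (2.62) also rose, and the partner of Rrm2 in ribonucleotide reductase, Rrm1, fell by 1.99.

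Mitotic genes fell more often, in 23 of 37 cases, with 13 up and a median of -0.76. Mki67, the proliferation antigen, went from 428, 439 and 436 CPM to 123, 109 and 124 CPM (-1.87 ± 0.08). Anln (-2.60), Nuf2 (-2.44), Cdc25b (-2.16), Bub3 (-2.04) and Aurkb (-1.88) fell, and Kif2c (2.10), Aurka (1.85), Cdc25c (1.51) and Ccnb1 (0.48) rose. Of the same 37 genes, 37 fell in NC_siRNA, 7 in Hif1a_siRNA and 24 in Dox against the shared Control libraries. Of all genes, 33.7% were lower in the first of these comparisons, 34.2% in the second (74.4% called, 40.2% higher) and 39.8% in the third (83.8% called, 43.9% higher). Among G1 regulators 10 of 24 rose and 12 fell. E2f2 rose from 3.53, 2.42 and 3.05 CPM to 181, 151 and 150 CPM (5.74 ± 0.14), and cyclin D1, Ccnd1, from 4.59, 4.12 and 3.89 CPM to 97.8, 79.7 and 104 CPM (4.48 ± 0.14). Ccne2 (4.06) and E2f8 (3.13) rose too. Cdk2 fell from 298, 339 and 354 CPM to 22.3, 24.8 and 22 CPM (-3.84 ± 0.10), the brakes Cdkn1b (-2.95) and Rb1 (-2.72) fell, and Ccnd3 fell by 2.03. Of the 5 listed linker histones 4 fell, led by H1f0, which went from 835, 959 and 872 CPM to 19, 20.3 and 19.6 CPM (-5.50 ± 0.10), and by H1f2 (-4.58). Most histone transcripts lack a poly(A) tail, and the library kit selects poly(A), so only part of such transcripts is measured.

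**Figure D3:**
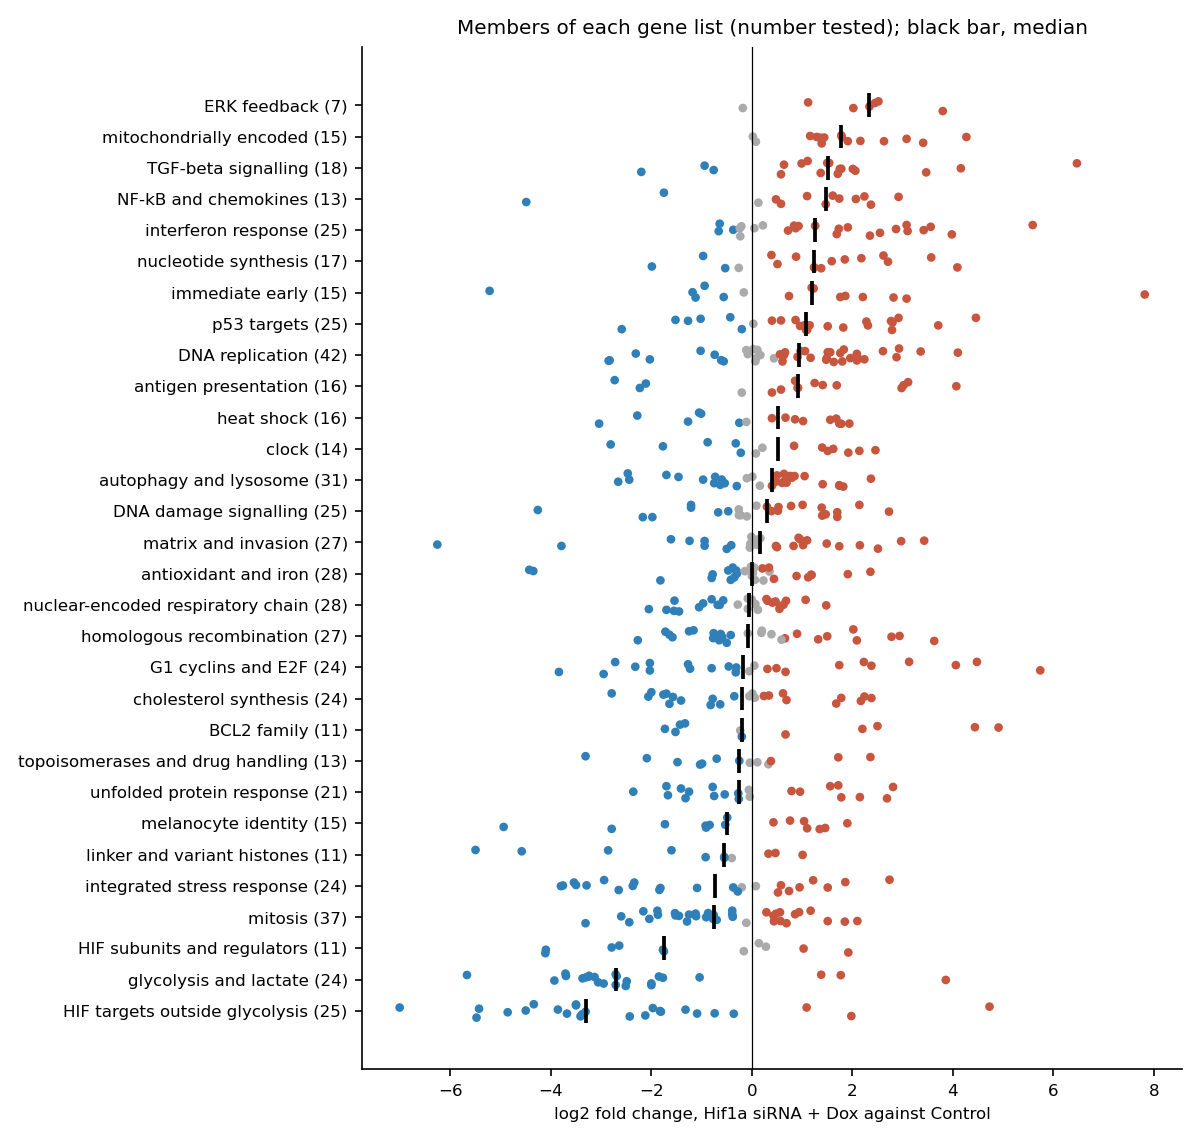
Log2 fold change of the combined group against Control for each tested member of 30 gene lists, with 1 point per gene, red where higher and blue where lower at an adjusted p under 0.05, grey where not called, and a black bar at the list's median. The lists of HIF targets and glycolysis have the lowest medians, at -3.31 and -2.71.

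The integrated stress response, in which Atf4 raises amino acid and stress genes, fell in 14 of 24 genes and rose in 8 (median -0.73). Atf4 went from 794, 724 and 715 CPM to 116, 139 and 102 CPM (-2.65 ± 0.11), and its partner Ddit3 (CHOP) from 483, 485 and 489 CPM to 95.5, 110 and 76.4 CPM (-2.37 ± 0.11). Cebpg (-3.80), the pseudokinase Trib3 (-3.76), Nupr1 (-3.54) and Ddit4 (-3.50) fell furthest, and Cth (2.74), the kinase Eif2ak3 (1.86) and Phgdh (1.51) rose. The unfolded protein response was mixed at 8 up and 11 down of 21, with Hspa5, the main chaperone of the endoplasmic reticulum, at -2.36 and Hyou1 at 2.81. In the heat shock list 9 of 16 rose, among them Hspa1a (1.94) and Hspa1b (1.74), near-identical copies whose reads may be exchanged, while the constitutive Hspa8 fell by 3.04.

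Innate immune genes rose more often than they fell. Of 25 listed interferon genes 17 rose and 3 fell (median 1.26), and 11 of 13 effectors rose. The number that fell was 2 with upper-quartile scaling and 4 with DESeq2. The 25 genes counted include Igf2bp1, an RNA-binding protein gene matched through its alias Zbp1, which is not an interferon gene. It had 12.5, 13 and 13.1 CPM in Control and 16.2, 12.4 and 16.3 CPM in the combined group. Oas1c, the gene matched to the list name Oasl2, rose by 5.59 to 15.8 CPM. Isg15 rose by 3.98, the DNA sensor Cgas by 3.56, Irf9 by 3.42 and Irf3 by 2.87. Among those that fell were Mavs (-0.64) and Sting1 (-0.37), the adaptor downstream of Cgas. NF-kB genes rose in 10 of the 13 listed, of 28 in the list, with a median of 1.47. Ccl5, a T cell chemokine, rose from 2.55, 2.08 and 1.92 CPM to 10.1, 7.29 and 10.1 CPM (2.07 ± 0.22), and Tnfaip3 by 2.92. Cxcl10 had 4.21, 5.69 and 5.65 CPM in Control and 5.55, 6.26 and 5.16 CPM in the combined group, which overlap, and 0.13 was not called (edgeR adjusted p = 0.57). The surface receptor Tnfrsf9 fell by 4.49 and the inhibitor Nfkbia by 1.75.

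Antigen presentation rose in 12 of 16 listed genes and fell in 3 (median 0.92). The peptide transporter Tap1 had 0.978, 0.722 and 1.13 CPM in Control and 15.1, 17.5 and 15.2 CPM in the combined group (4.07 ± 0.21). B2m, the class I light chain, had 505, 460 and 456 CPM and then 838, 823 and 1020 CPM (0.91 ± 0.09), and the heavy chains H2-D1 (1.25) and H2-K1 (0.58) rose. The checkpoint ligands Cd276 (3.11) and Cd274, PD-L1 (0.86), rose, and H2-T23 (-2.11), Pvr (-2.73) and Cd47 (-2.23), the signal that restrains phagocytes, fell.

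Immediate early genes, the first to answer growth and stress signals, rose in 9 of 15 listed cases and fell in 5 (median 1.19). Egr1 went from 0.681, 0.977 and 0.92 CPM to 226, 186 and 174 CPM (7.82 ± 0.17, edgeR adjusted p = 4.1e-15). Fos rose from 57, 45.4 and 45.5 CPM to 121, 113 and 103 CPM (1.19 ± 0.11), Klf4 by 3.08, Fosb by 2.82 and Myc by 1.76. Ier3 fell from 825, 711 and 742 CPM to 22.1, 20.5 and 18.5 CPM (-5.22 ± 0.11), and Jun (-1.12) and Jund (-1.18) fell. Feedback genes of the ERK pathway rose in 6 of 7 listed cases, among them Dusp6 (3.80), Spry2 (2.45) and Spry1 (2.34), and Spred1 (-0.18) was not called.

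TGF-beta genes rose in 15 of 18 cases (median 1.52), across ligands, receptors, SMADs and targets. Ccn2, a matrix-associated target also known as CTGF, had 0.425, 0.382 and 0.502 CPM in Control and 48.3, 32 and 36.9 CPM in the combined group (6.47 ± 0.23). Ccn2 was also 2.47 above Control on the log2 scale in NC_siRNA. Id1, an inhibitor of differentiation factors, went from 3.87, 4.33 and 5.56 CPM to 96.8, 80.8 and 68.9 CPM (4.16 ± 0.16). The ligands Tgfb2 (3.47), Tgfb1 (2.06) and Tgfb3 (2.01), the receptor Tgfbr1 (1.71) and the inhibitory Smad7 (1.75) rose. Smad4, the shared partner of receptor SMADs, fell by 2.20, as did Ccn1 (-0.94) and Ltbp1 (-0.76).

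Pigment cell genes divided into 7 that rose and 8 that fell, with a median of -0.49. Pmel, a melanosome fibre protein, rose from 3475, 3150 and 3360 CPM to 10178, 8558 and 8796 CPM (1.46 ± 0.09), and Mlana (1.90), Dct (1.35), Tyrp1 (0.76) and Mitf (0.43) rose. Sox10, a lineage factor, fell from 194, 199 and 186 CPM to 28.4, 29.9 and 25.3 CPM (-2.79 ± 0.10), and the melanocortin receptor Mc1r from 164, 137 and 149 CPM to 3.76, 6.13 and 4.66 CPM (-4.94 ± 0.15). Tyr (-0.84) and Pax3 (-1.73) fell. In NC_siRNA the Pmel difference from Control was -1.73. All 7 defining pigment cell markers (Mitf, Sox10, Tyr, Tyrp1, Dct, Pmel and Mlana) were listed in both groups. Of markers of other cells, 1 of 6 fibroblast genes was listed (Pdgfra, from 0.851 to 1.09 CPM in Control to 6.94 to 10.3 CPM) and 1 of 6 macrophage genes (Cd68, from 18.2 to 29 CPM down to 5.1 to 8.87 CPM). The T cell, endothelial and keratinocyte lists had 0 of 6 genes listed each.

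Among 27 listed matrix and invasion genes 13 rose and 8 fell (median 0.17), and 6 of 7 proteases and their regulators rose. Col1a1 (3.43), Itga3 (2.97), the urokinase receptor Plaur (2.51) and Itga6 (2.15) rose, and Pkp2, Itgb3 (-3.79) and fibronectin Fn1 (-1.24) fell. The 8 genes that fell include Fzr1 (-1.61), a cell cycle gene matched through its alias Cdh1. E-cadherin, for which that name stood, was not listed. Lysosomal hydrolases rose in 10 of 13 cases, with Hexa at 1.82 and Ctsd, cathepsin D, at 1.74, while the autophagy receptor Sqstm1 fell by 2.66. Cholesterol synthesis was split at 9 up and 12 down of 24, with Tm7sf2 at 2.38 and Insig1 at -2.79.

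Of 28 antioxidant and iron genes 9 rose and 11 fell. Targets of the oxidative stress factor NRF2 fell in 7 of 11 cases, led by haem oxygenase Hmox1, which went from 738, 773 and 724 CPM to 30, 41.3 and 32.2 CPM (-4.43 ± 0.12), and 8 of 9 antioxidant enzymes rose, such as Prdx1 (1.91) and Gpx1 (1.19). G6pdx, glucose-6-phosphate dehydrogenase of the pentose phosphate pathway, fell from 166, 170 and 154 CPM to 5.65, 8.29 and 10.2 CPM (-4.35 ± 0.17). Genes of the mitochondrial genome rose together, with 13 of 15 up and mt-Atp6 (0.08) and mt-Atp8 (0.02) not called (median 1.78). The large ribosomal RNA mt-Rnr2 went from 136, 129 and 145 CPM to 2449, 2209 and 3272 CPM (4.27 ± 0.14), mt-Nd3 rose by 3.41 and mt-Co1 by 1.39. Nuclear genes for the respiratory chain did not follow, with 10 up, 11 down and 7 not called of 28 (median -0.05, from -0.10 to 0.07 over the alternatives), between Ndufv2 at -2.05 and Ndufa4 at 1.48.

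To compare both agents with the drug alone, the combined group was set against Dox in a fit of all 15 libraries and 12721 genes. Transfection and the siRNA sequence differ together here, since the Dox label names no siRNA. In that comparison 42.2% of genes were called, 2733 higher (21.5%) and 2640 lower (20.8%), but the differences were small, with a median size of 0.26 on the log2 scale against 1.09 for the combined group against Control. At least 2-fold, 94 genes were higher (0.739%) and 323 lower (2.54%). These 2 counts rest partly on single libraries: the 94 became 169 without Dox replicate 2 and 148 without combined replicate 3, and the 323 became 498 without combined replicate 3. They also rest on the genes kept: with only protein-coding nuclear genes the 323 became 152 and the 94 became 77. The largest difference of a gene described above was that of G6pdx, at 185, 189 and 193 CPM in Dox and 6.05, 8.87 and 10.9 CPM in the combined group (-4.46, edgeR adjusted p = 3.1e-17). Control had 173, 176 and 160 CPM, NC_siRNA 143, 137 and 137 CPM and Hif1a_siRNA 15.4, 15.3 and 15.6 CPM, so G6pdx was low in the 2 groups given the Hif1a siRNA and in no other group. Hif1a was lower than in Dox by 3.44 on the log2 scale, and Arnt was slightly higher (0.41 ± 0.08).

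Glycolysis genes were lower than in Dox in 19 of 24 cases and higher in 2, with a median of -0.80. Aldoa (-1.93), Ldha (-1.78), Pgk1 (-1.51) and Eno1 (-1.36) were lower still in the combined group. Slc2a1 (-0.01) and Slc16a3 (0.01) were not called, and Hk2 was slightly higher (0.20). Of targets outside glycolysis 14 of 25 were lower and 5 higher (median -0.21), with Car9 at -2.06, Plod1 at -1.53, Loxl2 at -1.48 and Bnip3l at -1.43, while Vegfa was slightly above Dox (0.23). Nuclear respiratory chain genes were lower in 25 of 28 cases by small amounts (median -0.41). These genes were also lower than Control in 28 of 28 cases in NC_siRNA (median -0.69) and in 27 of 28 in Hif1a_siRNA (median -0.72).

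Several stress and signalling lists were higher than in Dox. Immediate early genes were higher in 11 of 15 cases (median 0.59), with Egr1 at 1.14 ± 0.13, Ier2 at 1.18 and Myc at 1.13. ERK feedback genes were higher in 6 of 7 (median 0.51) and Etv1 was lower (-0.53). The integrated stress response was higher in 13 of 24 and lower in 5 (median 0.48), including Ddit3 (1.11) and Atf4 (0.77), which were both below Control. Bbc3 was likewise 1.10 above Dox and below Control. TGF-beta genes were higher in 9 of 18 cases, with Id1 at 1.49 and Ccn2 at 1.29, and Ccl5 was 2.66 above Dox. Of 37 mitotic genes 9 were higher than in Dox and 6 lower (median 0.10), among them Cenpe (0.79) and Bub1 (-0.59), while Top2a (0.13) and Mki67 (0.16) were not called.

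Against the Hif1a siRNA alone, 84.2% of the 12721 genes were called, 5423 higher (42.6%) and 5294 lower (41.6%), with a median size of 1.01 on the log2 scale. The HIF lists did not move one way in this comparison: glycolysis had 13 genes higher and 7 lower (median 0.35), and other targets 11 higher and 14 lower (-0.54). Hif1a was -0.39 ± 0.09 (edgeR adjusted p = 4e-04) and Arnt -3.91. Pkm stood at 2011, 2025 and 2077 CPM in Hif1a_siRNA and at 5965, 5274 and 5099 CPM in the combined group, between siRNA alone and the 9498 to 10781 CPM of Dox. Bhlhe41 stayed near Control after siRNA alone (504, 489 and 516 CPM) and was at 11.4, 13.6 and 11.7 CPM in the combined group. All 15 mitochondrially encoded genes were higher than after siRNA alone (median 1.81), and 24 of 37 mitotic genes were lower (median -0.81).

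Some immune and signalling genes took opposite positions after siRNA alone and after both agents. H2-K1 had 39.8, 41.8 and 39.6 CPM in Hif1a_siRNA, 348, 306 and 322 CPM in Control and 520, 541 and 450 CPM in the combined group, a difference of 3.64 from siRNA alone. Antigen presentation genes were higher in 11 of 15 cases than after siRNA alone. Fos had 3.42, 3.17 and 2.95 CPM in Hif1a_siRNA against 130, 121 and 111 CPM in the combined group (5.24). Cxcl10 went the other way, with 87.1, 90.1 and 86.3 CPM in Hif1a_siRNA and 5.94, 6.69 and 5.54 CPM in the combined group (-3.85), near the 3.94 to 4.61 CPM of Dox, from which it differed by 0.48. Ccl5 had 12.5, 11.4 and 11.1 CPM in Hif1a_siRNA and 10.9, 7.8 and 10.9 CPM in the combined group (-0.25, not called), against 1.27, 1.34 and 2.04 CPM in Dox. These 2 chemokine genes, both raised by siRNA alone, thus differed in whether the higher level was present with the drug.

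**Figure D4:**
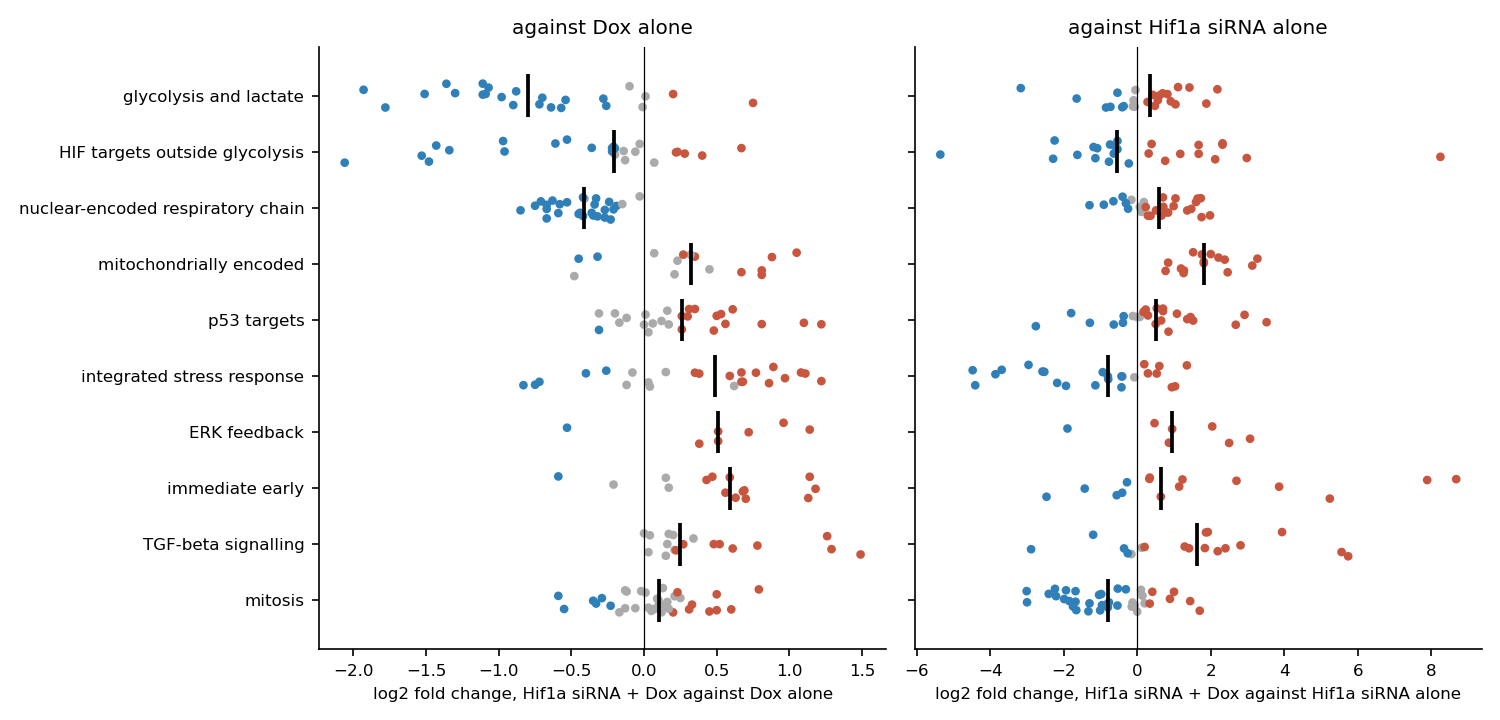
Log2 difference of the combined group from Dox (left) and from Hif1a_siRNA (right) for each tested member of 10 gene lists, with 1 point per gene, red where higher and blue where lower at an adjusted p under 0.05, grey where not called, and a black bar at the median. Glycolysis lies mostly below 0 against Dox, with a median of -0.80, and on both sides of 0 against Hif1a_siRNA, with a median of 0.35.

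Genes at which the combined group stood on the same side of Control, Dox and Hif1a_siRNA, each at an adjusted p under 0.05, numbered 1040 above (8.18% of 12721) and 862 below (6.78%). At least 2-fold in all 3, there were 32 above (0.252%) and 86 below (0.676%). The 3 tests share the combined libraries, and the genes named here were chosen on these tests, so their values are a description. Trib1, a pseudokinase, had group means of 0.408 CPM in Control, 3.68 in Hif1a_siRNA, 6.07 in Dox and 19.8 in the combined group. Ppp1r10, a nuclear phosphatase subunit, had 3.12, 15.3, 39.3 and 123.5 CPM in the same order, and the Wnt target Axin2 3.21, 18.0, 31.9 and 87.6 CPM. These 3 genes rose against Control with either agent and were highest with both. In NC_siRNA their means were 1.22 CPM for Trib1, 4.00 for Ppp1r10 and 8.06 for Axin2, and against Control Trib1 (1.57) and Axin2 (1.33) were called there too. Klhl18 had 3.20, 6.67, 6.17 and 17.7 CPM in that order, with 6.75 CPM in NC_siRNA. Id1, Zfp473, Hspa1b and the small nuclear RNA Rn7sk completed the 8 genes above, and the last of these has no poly(A) tail.

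Below both single agents, Aldoa had mean levels of 13603 CPM in Control, 3375 in Hif1a_siRNA, 4107 in Dox and 1077 in the combined group, and Car9 had 235, 9.24, 7.87 and 1.88 CPM. For both of these HIF targets the 2 agents gave like levels alone and a lower one together. In NC_siRNA Aldoa was at 8226 CPM, also below Control (-0.73), and Car9 at 248 CPM, which was not called against Control (0.08). Tsn, which encodes translin, had 83.3, 81.8, 73.3 and 25.6 CPM, near Control after either agent and 1.51 on the log2 scale below Dox after both. Eefsec, the selenocysteine elongation factor, had 115, 68.7, 67.4 and 23 CPM, and 57.4 CPM in NC_siRNA. The mannosyltransferase gene Alg2 had 85.0, 58.6, 20.2 and 6.85 CPM. Mcts2, Setdb2 and Spaca6 completed the 8 genes below, at 0.44, 0.961 and 0.623 CPM in the combined group, and for Setdb2 and Spaca6 the call against Dox was lost under several alternatives.

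**Figure D5:**
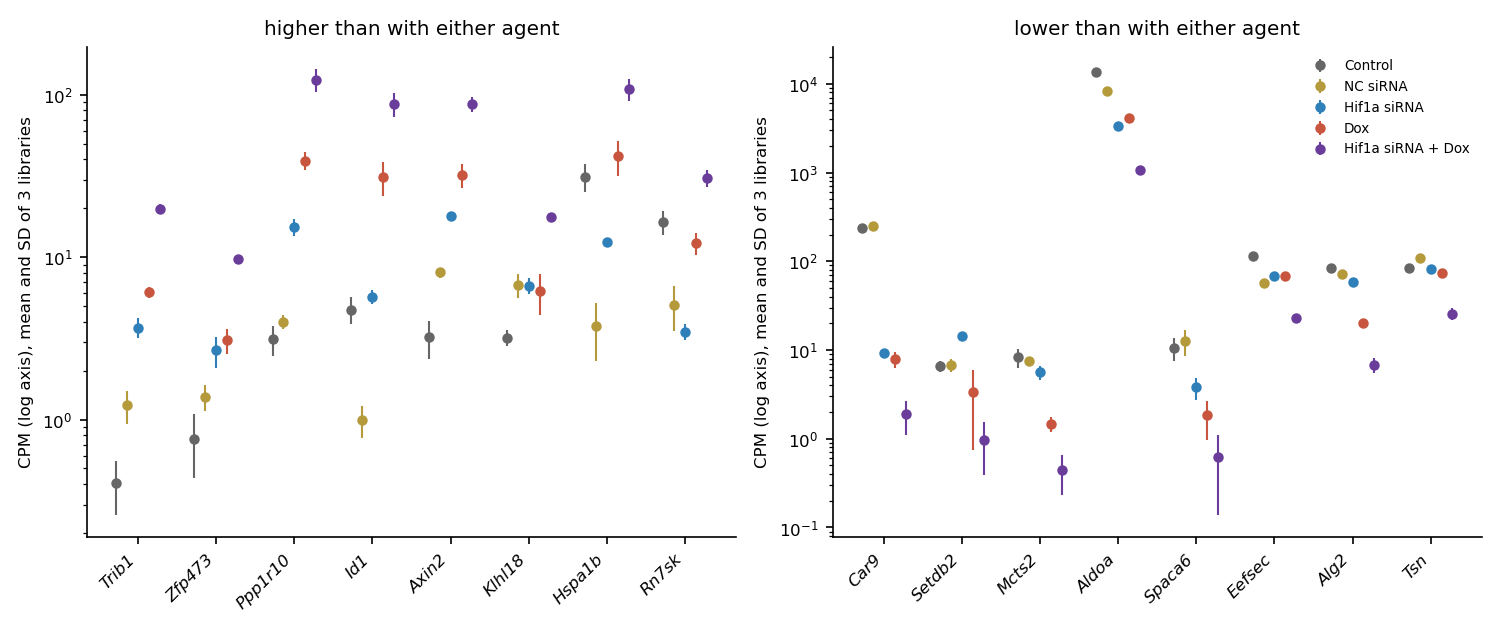
Mean CPM (log axis) with SD of 3 libraries in each of the 5 groups for the 8 genes furthest above and the 8 furthest below both single agents after the combination, on the scaling of all 15 libraries. Tsn stays between 73.3 and 110 CPM in 4 groups and is at 25.6 CPM in the combined group.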

How the data were processed

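Poly(A) RNA of B16.F10 cells was sequenced from TruSeq Stranded mRNA libraries of RNeasy-extracted RNA, per the labels' protocols. The authors deposited 1 table per group of unnormalized read counts by gene. The submitters' processing notes name the mm10 build, the aligners HISAT2 2.1.0 and Bowtie2 2.3.4.1, StringTie 2.1.3b, and FastQC 0.11.7 and Trimmomatic 0.38 for read quality, with no order. The strand setting of the counting and the gene annotation are not given in the sources used here, so reads of overlapping antisense genes may be mixed. Each table lists its own genes, which are subsets of the Control table. Each of the 13073 genes reached 10 reads in 3 or more of the 6 libraries, and 24 to 28 repeated rows per table outside Control were kept once. Symbols came from RefSeq by gene ID for 1440 genes, and 29 have none.

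Tests were two-sided quasi-likelihood F tests of edgeR 4.0.16 in R 4.3.3 (robust dispersions, TMM, group term only), with Benjamini-Hochberg adjustment over all genes tested and a threshold of 0.05. The comparison with Control used 6 libraries (4 residual degrees of freedom, biological coefficient of variation 0.122). Comparisons with Dox and Hif1a_siRNA, and the side values of Dox, Hif1a_siRNA and NC_siRNA against Control, used all 15 libraries and 12721 genes (10 degrees of freedom, 0.091). The low-count filter (10 reads) removed 0 genes. The fits were also run on simulated counts with few changed genes, which cannot show how they behave where 81.1% of genes are called. Counting intervals cover counting error only, and read copies were not removed by molecular identifiers. The comparison and the gene lists were chosen with earlier results of these data known.

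Named genes were Hif1a and a fixed set, the 10 largest changes in each direction (at least 5 CPM in the higher group, no overlap, no predicted names or pseudogenes), the 8 in each direction furthest apart from both single agents, and the most significant and the opposing members of each list. Further members were named after their values were seen. List names found under no symbol were matched through RefSeq synonyms. Abcb1a, of the fixed set, was not analysed here, and a few list members are counted but not reported by name. Alternatives were RLE and upper-quartile scaling, DESeq2 1.42.0, limma-voom (limma 3.58.1), other filters, thresholds and sample sets, protein-coding nuclear genes only, a replicate block, and leaving out each library.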

Additional observations from a re-analysis of the deposited data

How the results depend on the processing

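The combined group against Control gave 5439 genes higher and 5159 lower. The counts were 5330 and 5269 with RLE scaling, 5790 and 4775 with upper-quartile scaling, 5267 and 5203 with DESeq2, 5444 and 5245 with limma-voom, 5313 and 5070 with a 1 CPM filter, and 4826 and 4666 with protein-coding nuclear genes only. They ranged from 5209 to 5385 and from 4945 to 5201 when 1 library was left out. With upper-quartile scaling the median over genes shifted by 0.12 on the log2 scale, and 54.8% of calls were higher in place of 51.3%. Against Dox, genes at least 2-fold higher numbered 94, and 90 to 169 when 1 library was left out. Genes at least 2-fold lower numbered 323, and 264 to 498 when 1 library was left out. With protein-coding nuclear genes only, 152 were lower and 77 higher by at least 2-fold. That setting leaves fewer genes to call, but 11310 of the 13073 genes compared with Control are protein-coding. The causes of these shifts were not tested. Higher calls against Dox were 50.9% of all calls, and 58.6% with RLE and 44.2% with upper-quartile scaling. The Cxcl10 difference from Control, 0.13, ranged from -0.0023 (without Control replicate 1) to 0.2 when 1 library was left out and was called in none of these fits. Calls were lost under at least 1 alternative for Bax, H2ac25, Setdb2 and Spaca6 (22 cases) and gained for Abcb1b (2 cases), while 1486 of the single-gene values kept direction and call. List medians near 0 changed sign with the scaling for homologous recombination (-0.11 to 0.03), antioxidant and iron genes (-0.02 to 0.13) and the nuclear respiratory chain (-0.08 to 0.07). The labels do not say whether replicate numbers pair the libraries. Deviations of same-numbered Control and combined libraries from their group means, taken over all genes, correlated at -0.049, -0.012 and -0.088. Such values cannot show that no day or batch was shared. With the replicate block the counts were 5401 and 5134 against Control, 2659 and 2602 against Dox, and 5402 and 5283 against Hif1a_siRNA.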

Other observations

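Clock genes time daily rhythms. Of 14 listed members 7 rose and 5 fell in the combined group against Control, with a median log2 fold change of 0.53. The repressors Cry1 (2.46) and Cry2 (1.51), the activator Arntl (1.62) and the output factor Tef (2.14) rose, and the nuclear receptor Rora (-1.77), which raises Arntl, fell. The number that fell was 3 with upper-quartile scaling.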
